A study of Mus musculus with 20 samples.

Results

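The 36 genes described here encode factors of ribosome biogenesis, the assembly of ribosomes in the nucleolus and nucleus. A gene was taken as a member when its symbol is on a fixed list of such factors and a probe set of the mouse array names that symbol and no other gene. All 36 were found among the 19607 genes the array names, on 584 probe sets, with 1 probe set for Rrs1, 59 for Utp20 and a median of 15. By role, 2 members are subunits of RNA polymerase I, 4 are nucleolar chaperones and regulators, 4 form the core of small nucleolar ribonucleoproteins (snoRNPs), 15 act on the small ribosomal subunit and 11 on the large subunit.

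Ribosome production begins with transcription of the ribosomal DNA by RNA polymerase I. The long precursor RNA is then methylated and pseudouridylated by snoRNPs, cut into the mature RNAs and folded with ribosomal proteins, and separate sets of factors carry the small and the large subunit through these steps and out of the nucleus. Growing and dividing cells make many ribosomes, and the transcription factor MYC is known to activate many of these genes, in part through the DNA element CACGTG, called an E-box. In the thymus, developing T cells pass through a phase of rapid division, and tumours of these cells often carry high MYC downstream of Notch1 signalling.

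Expression was measured on 20 arrays of C57BL/6 mice. The series asks what loss of Gfi1 changes in thymocytes, the T-cell precursors of the thymus, after irradiation and in tumours. Gfi1 is a transcriptional repressor with zinc fingers, active in blood cell development. The 10 tumour arrays hold 2 Notch tumours labelled Gfi1 KO and 2 labelled WT, from mice with a Notch transgene (Notch1-CT in the labels), and 3 tumours labelled Gfi1 KO and 3 labelled WT from mice without it, called ENU tumours here. All tumour mice were given the mutagen ENU and carried floxed Gfi1 (Gfi1f/f), and those labelled KO also carried Mx1Cre+. By the labels' procedure, pIpC was injected after a growing tumour had been seen by ultrasound, so that Gfi1 was to be deleted in an existing tumour, and tumour cells were taken out weeks later. The pIpC step is not restricted to mice with Cre, the Mx1 promoter is active in many interferon-responsive cells and not in T cells alone, and pIpC itself induces interferon. The 10 thymocyte arrays hold 3 irradiated KO, 3 irradiated WT, 2 untreated KO and 2 untreated WT samples. Radiation dose, time after irradiation, age, the KO allele of the thymocyte mice and array batches are not given in the labels. The labels do not say whether arrays within a group are from separate mice, and p-values measure only the spread between these samples, which may be technical.

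A member's value on an array is the median of its probe sets after subtracting from each its 20-array mean, with the mean level of the gene added back. Values are read as log2 signal, although no source used here gives the log base, and no level is set against that of another gene. A difference is given with its standard error after ±, and a gene is called higher or lower when limma's p-value, adjusted by Benjamini-Hochberg over all genes tested in that comparison, is under 0.05. Thymocyte comparisons tested 12747 genes and 35 members, because Rrs1 was too dim on the thymocyte arrays. Tumour comparisons tested 13025 genes and tumour-against-thymocyte comparisons 13520 genes, with all 36 members in each.

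The targeted gene was read on its 8 probe sets, numbered in the order of their IDs. On probe set 2 of Gfi1, KO arrays averaged 5.64 ± 0.03 and WT arrays 11.95 ± 0.17 in untreated thymocytes (SD, n = 2 each; adjusted p = 3.39e-07), and 6.70 ± 0.56 against 11.22 ± 0.30 in Notch tumours (SD, n = 2 each; adjusted p = 0.0327). Of the other probe sets in untreated thymocytes, 3 and 4 were also called lower in KO arrays (-2.84 and -2.24). Probe sets 1, 5 and 7 were called higher there (1.07, 1.07 and 1.2). In Notch tumours probe set 2 was the only one called. In irradiated thymocytes probe set 2 of Gfi1 was higher in KO arrays, at 12.73 ± 0.01 against 11.50 ± 0.15 in WT arrays (SD, n = 3 each; adjusted p = 0.000381). Probe sets 1 and 3 were also called higher there (1.37 and 0.98). Probe sets 4 to 8 of Gfi1 were lower in irradiated KO arrays by log2 differences of -1.35 to -2.44. Irradiated and untreated KO arrays therefore differ in which Gfi1 probe sets are low, and irradiation cannot be told apart from a difference in KO allele between those arrays. In the ENU tumours labelled KO, none of the 8 Gfi1 probe sets was called lower by limma (0 of 8; smallest adjusted p = 0.391), with differences of -0.65 to 0.11. Probe set 2 averaged 10.85 ± 0.15 in ENU tumours labelled KO and 11.12 ± 0.50 in WT ENU tumours (SD, n = 3 each).

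A pair of tumour arrays stood apart. ENU tumour 1 labelled KO was the lowest of the 10 tumour arrays for 31 of 36 members, against 12.5% of all genes. Its macrophage and dendritic markers had a median of 2.08 above their mean over 20 arrays, its erythroid and megakaryocyte markers 1.22 above, and its thymocyte markers lay at -1.21. Erythroid and megakaryocyte markers did not set it apart: they lay at 2.21 in ENU tumour 2 labelled KO, and at 1.43 and 1.4 in untreated KO thymocytes. KO Notch tumour 2 went against its thymocyte label: its thymocyte markers had a median of -2.69, its B cell markers of 3.93 and its macrophage and dendritic markers of 1.54. Results that rest on these arrays are given with and without them. In RNA from whole samples, fewer cells of a type and less RNA per cell cannot be told apart.

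Promoter sequences of 31 of the 36 members were found in the RefSeq table (build GRCm38.p6), which gives 250 bases before the start of a gene and 50 bases of the gene. Rrp12, Fbl, Bop1, Npm1 and Rrs1 are named only. CACGTG, which reads the same on both strands, occurred in 8 of the 31 promoters (25.8%), against 7.15% of 32851 promoters and 8.09% of 27025 genes in the table. In 6 of the 31 (19.4%) it began within the first 50 bases of the gene, against 1.28% of genes. GGGCGG, the GC box, searched on both strands, occurred in 25 of 31 (80.6%) against 38.2% of genes, and TATAAA, also searched on both strands, in 2 of 31 (6.45%) against 15.7%. No E-box overlapped a GC box in the members (0 overlaps). These matches are letters in a window and no evidence of binding.

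The sequences of 7 promoters are shown as examples: Gnl3 and Tsr1 fell after irradiation, Polr1b, Nop2, Wdr43 and Pes1 were higher in ENU tumours, and Wdr12 lay lower in WT tumours than in thymocytes, unlike most members. The calls of Nop2, Wdr43 and Pes1 are among the less stable ones. The share of the 7 genes with CACGTG does not stand for that of the members. Each sequence holds 170 bases before the start and 30 bases of the gene, 5′ to 3′ on the strand of the gene, with CACGTG in capitals where it is present. In GRCm38.p6, the window of Gnl3 lies at chr14:31019102-31019301 on the minus strand, that of Tsr1 lies at chr11:74897910-74898109 on the plus strand, and that of Polr1b lies at chr2:129100826-129101025 on the plus strand. The window of Nop2 lies at chr6:125131713-125131912 on the plus strand, that of Wdr43 lies at chr17:71616045-71616244 on the plus strand, that of Pes1 lies at chr11:3963805-3964004 on the plus strand, and that of Wdr12 lies at chr1:60098471-60098670 on the minus strand.
Gnl3: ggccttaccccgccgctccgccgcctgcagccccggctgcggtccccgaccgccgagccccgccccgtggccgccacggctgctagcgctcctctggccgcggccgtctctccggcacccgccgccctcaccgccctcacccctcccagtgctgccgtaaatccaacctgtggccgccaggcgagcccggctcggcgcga
Tsr1: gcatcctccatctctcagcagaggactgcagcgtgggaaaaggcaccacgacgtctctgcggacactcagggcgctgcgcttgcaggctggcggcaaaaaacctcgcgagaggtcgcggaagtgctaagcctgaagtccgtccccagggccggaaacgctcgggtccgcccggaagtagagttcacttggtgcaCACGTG
Polr1b: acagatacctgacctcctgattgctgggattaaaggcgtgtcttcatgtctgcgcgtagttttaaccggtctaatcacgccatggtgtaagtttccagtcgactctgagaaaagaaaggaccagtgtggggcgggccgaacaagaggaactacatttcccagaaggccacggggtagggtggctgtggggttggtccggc
Nop2: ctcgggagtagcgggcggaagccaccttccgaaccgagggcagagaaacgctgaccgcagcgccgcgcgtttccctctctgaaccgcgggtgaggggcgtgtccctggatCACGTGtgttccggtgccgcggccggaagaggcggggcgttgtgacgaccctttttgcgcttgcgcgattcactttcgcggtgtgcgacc
Wdr43: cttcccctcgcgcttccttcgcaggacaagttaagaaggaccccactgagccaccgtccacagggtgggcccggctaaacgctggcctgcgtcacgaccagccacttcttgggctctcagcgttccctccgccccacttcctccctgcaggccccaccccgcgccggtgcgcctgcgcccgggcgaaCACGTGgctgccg
Pes1: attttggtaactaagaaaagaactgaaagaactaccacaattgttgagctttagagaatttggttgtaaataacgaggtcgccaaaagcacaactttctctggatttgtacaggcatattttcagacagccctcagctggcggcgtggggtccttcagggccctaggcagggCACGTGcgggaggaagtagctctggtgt
Wdr12: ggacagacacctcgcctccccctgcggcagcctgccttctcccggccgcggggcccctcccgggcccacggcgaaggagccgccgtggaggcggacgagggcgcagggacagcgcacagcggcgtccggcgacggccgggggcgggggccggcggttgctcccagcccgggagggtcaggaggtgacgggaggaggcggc
The E-box of Tsr1 begins at base 25 of the gene, that of Wdr43 at base 18, that of Pes1 at base 3 and that of Nop2 at position -60 from the start. The letters CACGTG are not in the windows of Gnl3, Polr1b and Wdr12. Outside the sequences shown, the E-box began at base 29 of Ltv1, base 38 of Utp20 and base 41 of Mybbp1a, and at position -121 from the start of Imp4.

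Taken over all members, the tumours of most groups sat above the thymocytes. The median of the members, each centred on its mean over 20 arrays, was 0.64 and -0.23 on the KO Notch tumour arrays and 0.39 and 0.14 on the WT Notch tumour arrays. It was -0.68, 0.18 and 0.45 on the arrays of ENU tumours labelled KO, against 0.54, 0.48 and 0.70 on those of WT ENU tumours. Irradiated thymocytes had -0.34, -0.45 and -0.37 in KO and -0.39, -0.16 and -0.39 in WT, and untreated thymocytes -0.09 and -0.06 in KO and -0.17 and -0.20 in WT. WT ENU tumours were the highest group and irradiated thymocytes the lowest, and the pair of tumour arrays that stood apart lay among or below the thymocytes. Members spread more than other genes within the KO tumour groups. Their median SD was 0.59 in ENU tumours labelled KO and 0.64 in KO Notch tumours, against 0.20 and 0.28 for all genes. It was also above that of all genes, by less, in WT Notch tumours (0.17 against 0.13) and WT irradiated thymocytes (0.17 against 0.13). In WT ENU tumours it was 0.14 against 0.18 for all genes.

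**Figure D1:**
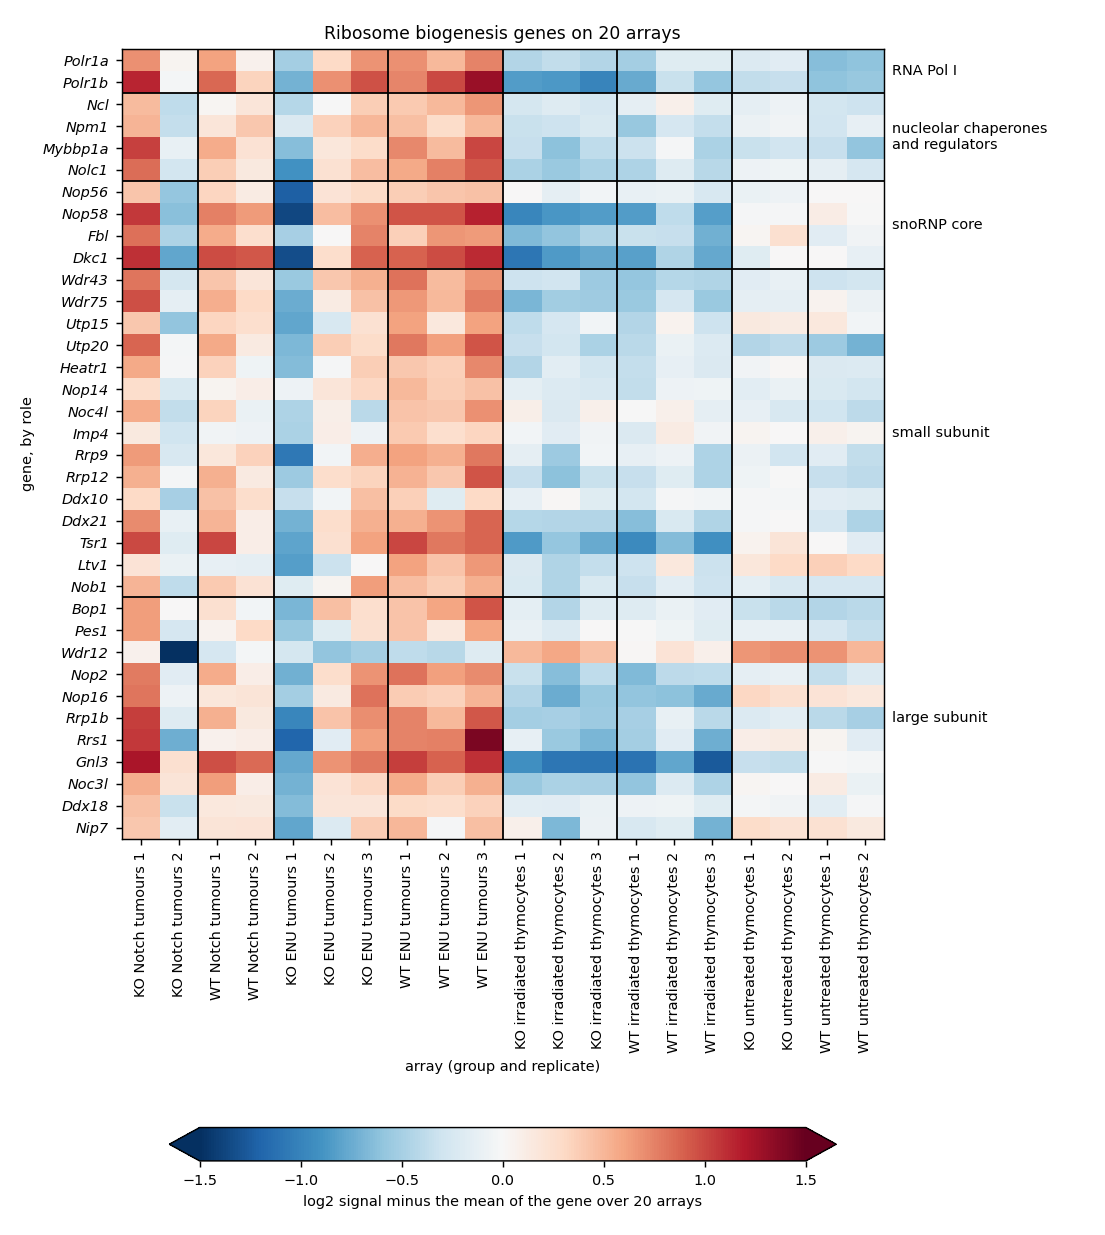
Level of the 36 ribosome biogenesis genes (rows, by role) on the 20 arrays (columns, by group), as log2 signal minus the mean of each gene over the 20 arrays. Red is above and blue below the mean. The WT ENU tumours are red for nearly all rows and ENU tumour 1 labelled KO is blue for most. By group means, Wdr12 is lower in tumours than in thymocytes, against the direction of most rows.

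After irradiation a part of the members was lower in both genotypes, among them RNA-modifying enzymes of the nucleolus and large-subunit factors. In KO thymocytes 17 of 35 members were lower after irradiation and 0 higher (48.6% lower, where 23.7% of all genes were called lower and 15.1% higher; by unadjusted p under 0.05 in limma, 20 were lower and 0 higher, and of all genes 28.5% and 20.3%). In WT thymocytes 11 were lower (31.4%) and 3 higher (8.57%), where 21.7% of all genes were called lower and 13.0% higher. The median difference of the members was -0.27 in KO and -0.10 in WT thymocytes, and that of all genes tested was -0.02 in each. Of the members called lower, 10 were so in both genotypes, which is 58.8% of the 17 in KO and 90.9% of the 11 in WT. Over all genes 2016 were lower in both, 66.7% of those lower in KO and 73% of those lower in WT. The genotypes share no arrays here, but each gene has a common estimate of its spread. In KO, irradiation cannot be told apart from a difference in KO allele between irradiated and untreated arrays, here and in the paragraphs below.

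Of the snoRNP core, all but Nop56 fell, with 3 of 4 called lower in KO and 3 of 4 in WT. Nop58, a scaffold protein of the snoRNPs that guide ribose methylation, had 8.97, 9.08 and 9.11 in irradiated KO against 9.93 and 9.94 in untreated KO thymocytes, and 9.11, 9.57 and 9.13 in irradiated WT against 10.07 and 9.95 in untreated WT thymocytes. All irradiated arrays lay below all untreated ones in each genotype. The differences for Nop58 were -0.88 ± 0.13 in KO (adjusted p = 4.68e-05) and -0.74 ± 0.13 in WT (adjusted p = 0.000305).

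Dkc1, dyskerin, is the pseudouridine synthase of the box H/ACA snoRNPs. It had 8.98, 9.21 and 9.29 in irradiated KO against 9.88 and 10.06 in untreated KO thymocytes, and 9.24, 9.61 and 9.29 in irradiated WT against 10.06 and 9.93 in untreated WT thymocytes. The groups did not overlap in either genotype, and Dkc1 fell by 0.81 ± 0.13 in KO (adjusted p = 0.000111) and by 0.61 ± 0.13 in WT (adjusted p = 0.00144). Fibrillarin, Fbl, the methyltransferase of the box C/D snoRNPs, had 10.75, 10.82 and 10.96 in irradiated KO against 11.44 and 11.65 in untreated KO, and 11.08, 11.07 and 10.69 in irradiated WT against 11.25 and 11.36 in untreated WT thymocytes. Every irradiated array was again the lower, with differences of -0.70 ± 0.12 in KO (adjusted p = 0.000377) and -0.36 ± 0.12 in WT (adjusted p = 0.0362). The WT call of Fbl held in 5 of 11 alternatives: without irradiated WT thymocytes 3 the difference was -0.23 (adjusted p = 0.161), and the call was also lost without either untreated WT array, with no filter on dim genes, with the replicate block (adjusted p = 0.0842) and in the fit of all 20 arrays. Nop56, the partner of Nop58, differed by 0.04 ± 0.10 in KO (adjusted p = 0.78) and -0.16 ± 0.10 in WT (adjusted p = 0.218).

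Among large-subunit factors, 6 of 10 were called lower in KO and 5 of 10 in WT. Gnl3, the nucleolar GTPase nucleostemin, had 8.89, 8.73 and 8.71 in irradiated KO against 9.47 and 9.44 in untreated KO, and 8.70, 9.03 and 8.55 in irradiated WT against 9.81 and 9.78 in untreated WT thymocytes. Its groups were well separated in both genotypes. In WT its difference of -1.03 ± 0.12 was the largest of any member (adjusted p = 1.04e-05), and in KO it was -0.67 ± 0.12 (adjusted p = 0.000482). Nop16, a nucleolar protein of large-subunit assembly, had 9.83, 9.52 and 9.71 in irradiated KO against 10.57 and 10.51 in untreated KO, and 9.67, 9.65 and 9.51 in irradiated WT against 10.47 and 10.42 in untreated WT thymocytes. It fell by nearly the same amount in both, with -0.85 ± 0.11 in KO (adjusted p = 1.31e-05) and -0.83 ± 0.11 in WT (adjusted p = 1.96e-05).

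Nip7, which binds precursor RNA, had 8.80, 8.05 and 8.64 in irradiated KO against 9.0 and 8.94 in untreated KO, and 8.49, 8.55 and 8.02 in irradiated WT against 8.96 and 8.87 in untreated WT thymocytes. An array of each irradiated group lay far below its companions, and the differences of -0.47 ± 0.18 in KO (adjusted p = 0.0483) and -0.56 ± 0.18 in WT (adjusted p = 0.0242) passed narrowly. The call of Nip7 held in 3 of 10 alternatives in KO and 5 of 10 in WT, and without irradiated KO thymocytes 2 the KO difference was -0.25 (adjusted p = 0.178). Wdr12 forms the PeBoW complex with Pes1 and Bop1, and these did not move alike. In WT, Wdr12 had 9.63, 9.81 and 9.68 in irradiated against 10.28 and 10.11 in untreated thymocytes, a difference of -0.49 ± 0.10 (adjusted p = 0.00149), whereas Pes1 differed by 0.22 ± 0.10 (adjusted p = 0.109) and Bop1 by 0.26 ± 0.10 (adjusted p = 0.0612). In KO, Wdr12 differed by -0.18 ± 0.10 (adjusted p = 0.158), Pes1 by 0.01 ± 0.10 and Bop1 by 0.11 ± 0.10, none of them called. Also called lower in both genotypes was Noc3l, at -0.52 in KO and -0.43 in WT, while Nop2, an rRNA methyltransferase (-0.33), and Rrp1b (-0.34) were called in KO and not in WT, each in 5 of 11 alternatives.

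On the small-subunit side, 6 of 15 were called lower in KO, and 3 lower and 2 higher in WT. Tsr1, which acts late in small-subunit maturation and whose E-box is shown above, had 7.79, 8.05 and 7.88 in irradiated KO against 8.69 and 8.83 in untreated KO, and 7.68, 7.99 and 7.71 in irradiated WT against 8.64 and 8.46 in untreated WT thymocytes. No irradiated array reached an untreated one, and Tsr1 fell by 0.86 ± 0.12 in KO (adjusted p = 3.52e-05) and by 0.76 ± 0.12 in WT (adjusted p = 0.000145). Ltv1, needed for late maturation and export of the small subunit in yeast, fell by 0.57 ± 0.13 in KO (adjusted p = 0.00271) and by 0.49 ± 0.13 in WT (adjusted p = 0.00882). Wdr75, of the group of factors that tie early processing to rDNA transcription, fell by 0.45 in KO and by 0.44 in WT.

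Utp20 and Noc4l, both of the small subunit processome in yeast, went the other way in WT. Utp20 had 8.95, 9.25 and 9.15 in irradiated WT against 8.81 and 8.64 in untreated WT thymocytes, with all irradiated arrays above (0.40 ± 0.11, adjusted p = 0.0108). Noc4l had 10.29, 10.37 and 10.16 in irradiated WT against 10 and 9.90 in untreated WT thymocytes, also without overlap (0.32 ± 0.11, adjusted p = 0.0365). The call of Utp20 was lost without untreated WT thymocytes 2 and in the fit of all 20 arrays. That of Noc4l held in 4 of 11 alternatives and was lost without irradiated WT thymocytes 1 or 2, without either untreated WT array, with no filter, with the replicate block (adjusted p = 0.0632) and in the fit of all 20 arrays. In KO, Utp20 differed by 0.05 ± 0.11 and Noc4l by 0.17 ± 0.11, neither called.

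The subunits of RNA polymerase I had different calls in the genotypes. Polr1a, the largest subunit, had 9.37, 9.44 and 9.37 in irradiated KO against 9.61 and 9.65 in untreated KO thymocytes (-0.23 ± 0.11, adjusted p = 0.101), and 9.30, 9.63 and 9.63 in irradiated WT against 9.17 and 9.21 in untreated WT thymocytes (0.33 ± 0.11, adjusted p = 0.0285). Its irradiated arrays lay below the untreated ones in KO and above them in WT. The WT call of Polr1a held in 4 of 11 alternatives and was lost without irradiated WT thymocytes 2 or 3, without either untreated WT array, with dim probe sets left out, with the replicate block (adjusted p = 0.0685) and in the fit of all 20 arrays. Polr1b had 9.25, 9.23 and 9.10 in irradiated KO against 9.72 and 9.74 in untreated KO thymocytes (-0.54 ± 0.12, adjusted p = 0.00164), and 9.33, 9.75 and 9.51 in irradiated WT against 9.48 and 9.52 in untreated WT thymocytes (0.03 ± 0.12, adjusted p = 0.86). The WT groups of Polr1b overlapped.

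The difference between the responses itself was called for no member by limma (0 of 35; by unadjusted p under 0.05, 1 higher and 7 lower, and of all genes 6.51% and 6.32%), where 1.10% of all genes were called higher and 0.784% lower. The KO minus WT response had a median of -0.14 over the members and -0.01 over all genes. A difference in KO allele between irradiated and untreated KO arrays cannot be told apart from it. For Polr1a the KO minus WT response was -0.56 ± 0.15 (adjusted p = 0.0824) and for Polr1b -0.57 ± 0.16 (adjusted p = 0.0992). Polr1a passed the threshold with quantile normalization (adjusted p = 0.0463) and with the mean of the probe sets (adjusted p = 0.0332), and without irradiated WT thymocytes 1 both passed, Polr1a at -0.67 (adjusted p = 0.0143) and Polr1b at -0.67 (adjusted p = 0.034).

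**Figure D2:**
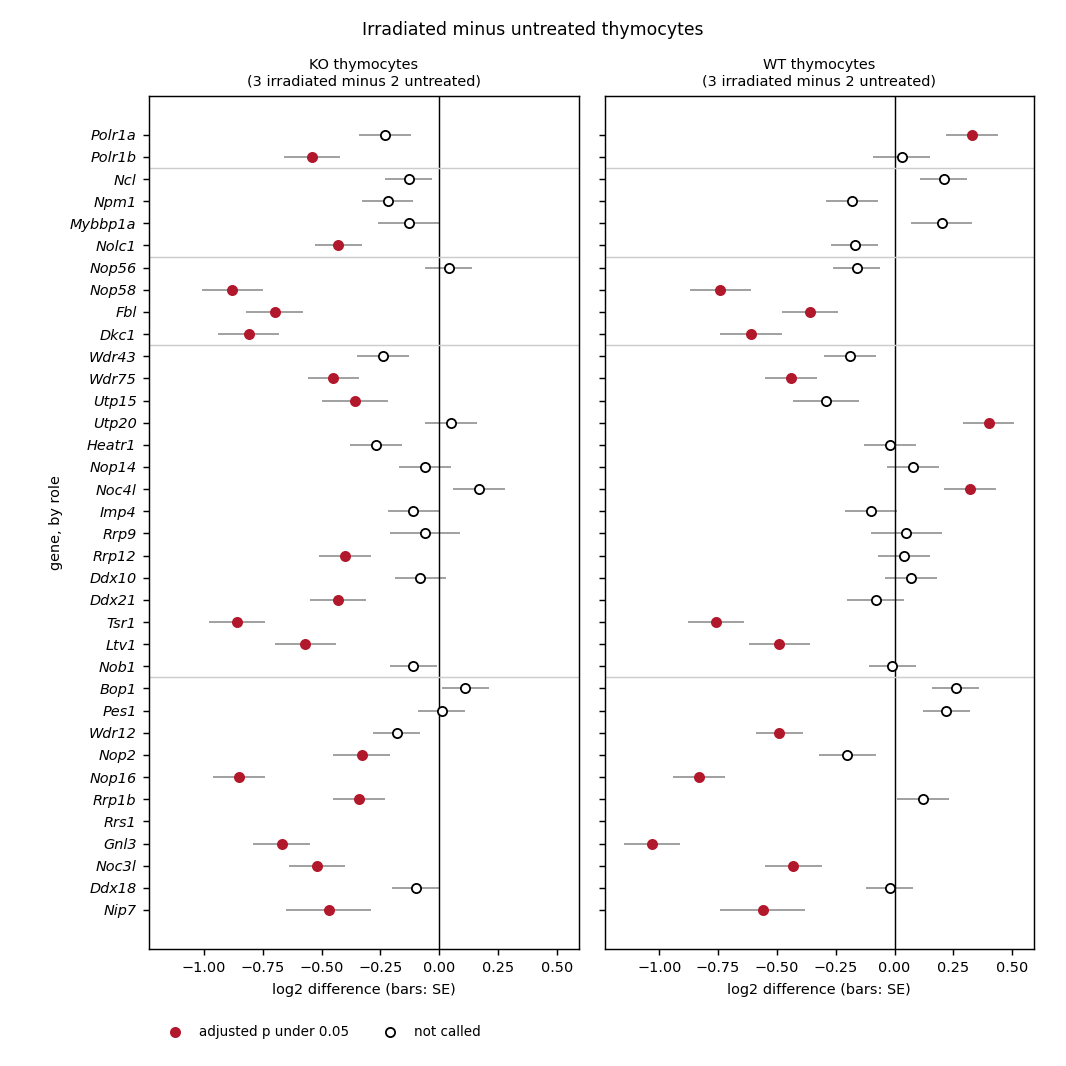
Log2 difference between irradiated and untreated thymocytes for each member (rows, by role), in KO (left) and WT (right), with bars of 1 SE. Filled points have an adjusted p under 0.05; in KO all 17 lie below 0, in WT 11 lie below and 3 above 0.

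The wider pathway, a list of other ribosome biogenesis genes of which 95 were tested, had similar counts. In KO 49 of 95 were lower (51.6%) and 2 higher, and in WT 36 were lower (37.9%) and 6 higher (6.32%), with medians of -0.29 in KO and -0.25 in WT. Imp3, a protein of the U3 snoRNP, differed by -1.25 ± 0.14 in KO (adjusted p = 4.8e-06) and -1.16 ± 0.14 in WT (adjusted p = 1.25e-05). Mki67ip differed by -0.96 ± 0.11 in KO (adjusted p = 6.65e-06) and -0.64 ± 0.11 in WT (adjusted p = 0.00036). Also called lower in both were Bysl (-0.92 in KO and -0.35 in WT), Tcof1, the treacle protein of rDNA transcription (-0.70 and -0.44), Rpp38 (-0.84 and -0.86) and the RNA polymerase I subunit Polr1e (-0.66 in each). Higher were Pelp1 in both (0.35 in KO and 0.54 in WT), Las1l in KO (0.30), and Nol6 (0.73), Naf1 (0.60) and Dhx33 (0.39) in WT.

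Myc fell further than any member. It had 10.05, 9.86 and 10.09 in irradiated KO against 11.86 and 11.73 in untreated KO, and 9.70, 9.84 and 9.79 in irradiated WT against 11.62 and 11.46 in untreated WT thymocytes. Every irradiated array lay far below every untreated one, with differences of -1.79 ± 0.11 in KO (adjusted p = 4.43e-09) and -1.76 ± 0.11 in WT (adjusted p = 5.47e-09). Mycn rose by 0.81 ± 0.11 in KO (adjusted p = 3.58e-05) and differed by 0.28 ± 0.11 in WT (adjusted p = 0.066), and Max differed by 0.08 ± 0.10 in KO and 0.25 ± 0.10 in WT, neither called. Genes of cell division moved both ways: Pcna rose by 0.65 ± 0.10 in KO (adjusted p = 0.000114) and 0.59 ± 0.10 in WT (adjusted p = 0.000309), Mki67 differed by 0.27 ± 0.12 in KO (adjusted p = 0.076) and rose by 0.57 ± 0.12 in WT (adjusted p = 0.00116), and Top2a differed by -0.08 in KO and -0.02 in WT, neither called. Of 13 proliferation genes tested, 3 were higher and 2 lower in KO, and 5 higher and 2 lower in WT. The lower ones were Plk1, a mitotic kinase (-1.60 in KO and -1.24 in WT), and Cdc2a, a cyclin-dependent kinase (-0.67 in KO and -0.70 in WT), named after their values were seen.

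Of the 8 members with CACGTG in the promoter, 3 were called lower in KO and 2 in WT, and of the 23 without it 12 were lower in KO and 8 in WT. Markers of other cells moved with irradiation too. Macrophage and dendritic markers were lower for 5 of 6 genes in KO and 5 of 6 in WT, with log2 summed signals of 11.92 to 12.22 in irradiated against 13.14 to 13.17 in untreated KO, and 10.79 to 10.94 in irradiated against 12.50 to 12.57 in untreated WT thymocytes. B cell markers were lower for 5 of 5 in KO and 4 of 5 in WT, erythroid and megakaryocyte markers for 4 of 4 in KO and 1 of 4 in WT, and NK and cytotoxic markers for 3 of 4 in each. Granulocyte markers were lower for 8 of 8 in WT, with summed signals of 11.10 to 11.42 in irradiated against 12.81 to 13.01 in untreated thymocytes, and higher for 2 of 8 in KO. Thymocyte markers were lower for 4 of 8 and higher for 1 in KO and lower for 3 of 8 in WT. The part of these markers in the members' fall was not tested.

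The counts depended on the untreated arrays, of which there are 2 per genotype. Without untreated KO thymocytes 1 or 2, 11 members were called in KO, where 21.2% and 22.7% of all genes were called either way, against 38.8% with all thymocyte arrays. Without untreated WT thymocytes 1 or 2, 7 and 9 were called in WT, where 16.7% and 23.3% of all genes were called, against 34.6%. In a fit of all 20 arrays, where the spread of the tumours enters, 0 were called in either genotype (smallest adjusted p = 0.0912 in KO and 0.118 in WT), with medians of -0.30 in KO and -0.13 in WT.

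Loss of Gfi1 in untreated thymocytes went with small differences of the members, most of them upward. Only Polr1a was called among 35 members, 1 higher and 0 lower, where 6.79% of all genes were called higher and 5.49% lower. Polr1a had 9.61 and 9.65 in KO against 9.17 and 9.21 in WT thymocytes, with no overlap (0.43 ± 0.12, adjusted p = 0.0237). Its call was lost without any of the 4 untreated arrays and in the fit of all 20 arrays. In 21 of 35 members (60%) both KO arrays lay above both WT arrays and in 6 (17.1%) both lay below, where 28.6% and 33.3% of all genes did so. The median difference was 0.12, against -0.02 over all genes.

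Next to Polr1a in size stood Ddx21, an RNA helicase of rDNA transcription and precursor processing (0.35 ± 0.13, adjusted p = 0.0833), Rrp12 (0.34 ± 0.12, adjusted p = 0.0935) and, below 0, Gnl3 (-0.34 ± 0.14, adjusted p = 0.126). Gnl3 had 9.47 and 9.44 in KO against 9.81 and 9.78 in WT thymocytes, without overlap. Ddx21 passed with quantile normalization (0.37, adjusted p = 0.0425). Of the other ribosome biogenesis genes 0 of 95 were higher and 1 lower, Exosc2 of the RNA exosome (-0.36 ± 0.11, adjusted p = 0.034). These genes did not share the upward lean of the members. Their median difference was -0.01, and both KO arrays lay above both WT arrays for 26.3% and below for 29.5%. Myc differed by 0.26 ± 0.12 (adjusted p = 0.189). All 8 granulocyte markers were lower in KO, with log2 summed signals of 9.62 to 9.68 against 12.81 to 13.01 in WT, 5 of 6 macrophage and dendritic markers were higher (13.14 to 13.17 against 12.50 to 12.57), and 4 of 4 erythroid and megakaryocyte markers were higher (12.84 to 13.09 against 9.61 to 9.75); their part in the members' values was not tested.

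In irradiated thymocytes 1 of 35 members was higher in KO and 1 lower, where 8.12% of all genes were called higher and 6.81% lower. Wdr12 had 10.09, 10.19 and 10.05 in KO against 9.63, 9.81 and 9.68 in WT, with every KO array above every WT array (0.40 ± 0.09, adjusted p = 0.00482). Its call held without any of the 6 irradiated arrays and was lost in the fit of all 20 arrays. Polr1b had 9.25, 9.23 and 9.10 in KO against 9.33, 9.75 and 9.51 in WT (-0.34 ± 0.10, adjusted p = 0.035). The gap between the groups of Polr1b was narrow, and its call was lost without irradiated WT thymocytes 2 or 3, without irradiated KO thymocytes 1 or 3, with no filter on dim genes, with dim probe sets left out and in the fit of all 20 arrays.

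Over all 35 members, these 2 included, the irradiated genotypes sat close together. Upward, 1 member did not overlap (2.86%, Wdr12), and downward 5 did not (14.3%, Polr1b among them), where 11.8% and 13.4% of all genes did so. The median difference was -0.03, as for all genes. No other ribosome biogenesis gene was called by limma (0 of 95; by unadjusted p under 0.05, 0 higher and 7 lower). Mycn was higher in KO by 0.75 ± 0.10 (adjusted p = 3.69e-05) and Myc differed by 0.23 ± 0.10 (adjusted p = 0.138). Granulocyte markers were lower for 6 of 8 (9.88 to 9.90 in KO against 11.10 to 11.42 in WT), macrophage and dendritic markers higher for 5 of 6 (11.92 to 12.22 against 10.79 to 10.94), and erythroid and megakaryocyte markers higher for 4 of 4 (10.55 to 11.24 against 9.33 to 9.60); their part was not tested.

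WT ENU tumours had higher levels of many of the members than WT untreated thymocytes. Of 36 members 15 were called higher (41.7%) and 0 lower, where 9.87% of all genes were called higher and 10.2% lower, and the median difference was 0.83 against 0.01 over all genes. All WT ENU tumour arrays lay above both thymocyte arrays for 33 members and below for 1, Wdr12, where 27.9% of all genes lay above and 26.9% below. Both RNA polymerase I subunits were called, 2 of 4 chaperones and regulators, 0 of 4 snoRNP core proteins, 7 of 15 small-subunit and 4 of 11 large-subunit factors. The WT untreated thymocytes serve here and in the untreated and WT irradiation comparisons, which therefore share arrays.

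Polr1b had 10.82, 11.08 and 11.38 in WT ENU tumours against 9.48 and 9.52 in WT untreated thymocytes (1.59 ± 0.39, adjusted p = 0.0114). Polr1a had 10.50, 10.30 and 10.56 against 9.17 and 9.21 in the same groups (1.26 ± 0.27, adjusted p = 0.00507). Both subunits stood more than 1 log2 unit above the thymocytes on every tumour array, and all 34 probe sets of Polr1a and all 15 of Polr1b were higher. Utp20 had 10.14, 9.97 and 10.30 in WT ENU tumours against 8.81 and 8.64 in WT untreated thymocytes (1.41 ± 0.28, adjusted p = 0.0033), and it was the only member called in each of the alternatives run.

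Among the chaperones and regulators, Mybbp1a, a nucleolar protein that also binds MYB, had 11.16, 10.92 and 11.44 in WT ENU tumours against 10.09 and 9.85 in WT untreated thymocytes (1.21 ± 0.30, adjusted p = 0.0117). Nucleolin, Ncl, had 11.43, 11.52 and 11.70 in WT ENU tumours against 10.76 and 10.73 in WT untreated thymocytes (0.81 ± 0.22, adjusted p = 0.0199). Tumour and thymocyte arrays did not overlap for either. Nucleophosmin, Npm1, differed by 0.61 ± 0.22 (adjusted p = 0.0655) and Nolc1, a scaffold for snoRNPs in the nucleolus, by 0.94 ± 0.33 (adjusted p = 0.0576), neither called.

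Large-subunit factors were led by Rrp1b, which had 9.88, 9.62 and 10.06 in WT ENU tumours against 8.73 and 8.63 in WT untreated thymocytes (1.17 ± 0.39, adjusted p = 0.0467). Of the PeBoW complex, Bop1 had 10.97, 11.13 and 11.49 against 10.11 and 10.14 (1.07 ± 0.27, adjusted p = 0.0117) and Pes1 10.26, 9.99 and 10.42 against 9.58 and 9.47 in the same groups (0.70 ± 0.23, adjusted p = 0.0469). Their partner Wdr12 had 9.23, 9.19 and 9.42 in WT ENU tumours against 10.28 and 10.11 in WT untreated thymocytes. It was thus lower on each tumour array and on 13 of 13 probe sets, at -0.91 ± 0.33 (adjusted p = 0.0627), and passed the threshold with quantile normalization (-0.98, adjusted p = 0.0407) and with the mean of the probe sets (-1.01, adjusted p = 0.033). Gnl3, lower after irradiation, had 10.85, 10.69 and 10.91 in WT ENU tumours against 9.81 and 9.78 in WT untreated thymocytes (1.03 ± 0.36, adjusted p = 0.0553).

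The other members called higher were Ddx21 (1.05), Nop2 (0.99), Rrp12 (0.99), Wdr43 (0.95), Noc4l (0.85), Nob1 (0.71), the nuclease that finishes the small-subunit RNA, and Nop14 (0.68). Calls near the threshold held in fewer of the 12 alternatives: 4 for Rrp1b, 5 each for Pes1 and Nob1, 6 for Nop2 and 7 for Wdr43. Heatr1, of the factors that tie early processing to rDNA transcription, differed by 0.70 ± 0.24 (adjusted p = 0.0521). The snoRNP core was above the thymocytes on every WT ENU tumour array but not called: Dkc1 differed by 1.06 ± 0.51 (adjusted p = 0.161), Nop58 by 0.96 ± 0.49 (adjusted p = 0.184), Fbl by 0.67 ± 0.33 (adjusted p = 0.175) and Nop56 by 0.40 ± 0.34 (adjusted p = 0.457). The standard errors come from the fit of 20 arrays, which includes the 2 tumour arrays that stood apart.

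Those 2 arrays had the lowest medians of the members among the tumour arrays (-0.68 and -0.23). Leaving them out selects on the members' own values and narrows their spread, so the counts without them are no support. Without those 2 arrays, an alternative added after seeing the data, 29 of the 36 members were higher and 1 lower (33.6% of all genes called in either direction). With only the 2 groups compared in the fit, 28 were higher and 1 lower (23%). Wdr12 was the lower member in both, with adjusted p = 3.29e-05 and 0.00816. Leaving out WT ENU tumours 1, 2 or 3 lowered the count to 10, 12 or 7 members, all of them higher. Without either WT untreated array, which leaves 1 array in that group, few of the higher calls held. The median difference stayed between 0.74 and 0.86 when an array was left out.

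**Figure D3:**
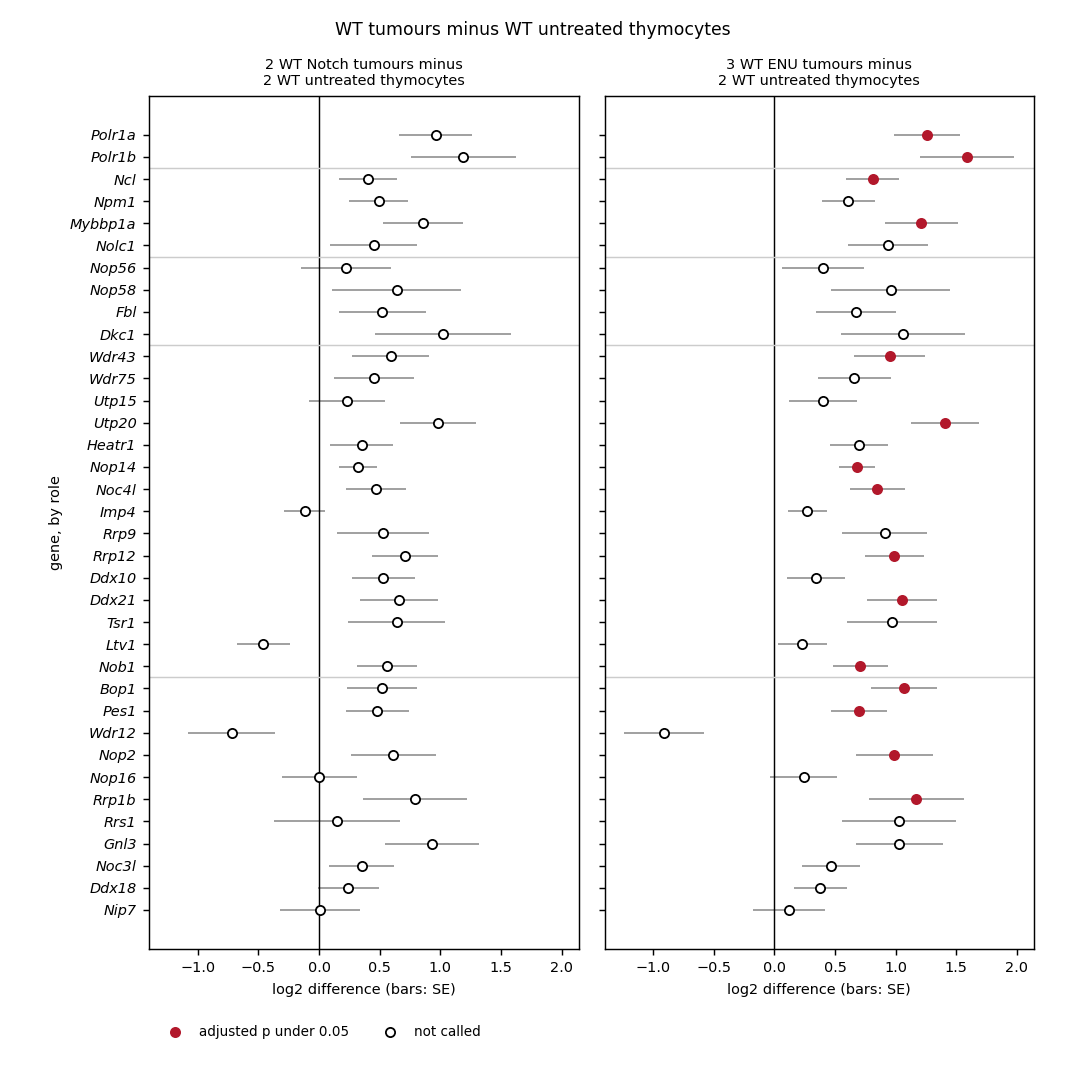
Log2 difference of WT tumours from WT untreated thymocytes for each member (rows, by role), in Notch tumours (left) and ENU tumours (right), with bars of 1 SE. Filled points have an adjusted p under 0.05; 15 of 36 are filled for ENU tumours and 0 for Notch tumours, and Wdr12 lies below 0 in both.

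In WT Notch tumours 33 of 36 members were also above the thymocytes by their means, and 0 of 36 members were called by limma (by unadjusted p under 0.05, 7 higher and 0 lower, and of all genes 8.77% and 14.7%), where 2.14% of all genes were called higher and 5.54% lower. The median difference was 0.50 against 0.00 over all genes. Both WT Notch tumour arrays lay above both thymocyte arrays for 30 members and below for 3, where 32.1% and 35.6% of all genes did so. Polr1b had 10.95 and 10.42 in WT Notch tumours against 9.48 and 9.52 in WT untreated thymocytes (1.19 ± 0.43, adjusted p = 0.108), Polr1a differed by 0.96 ± 0.30 (adjusted p = 0.0623) and Utp20 by 0.98 ± 0.31 (adjusted p = 0.065). Wdr12 was again below, with 9.36 and 9.58 in WT Notch tumours against 10.28 and 10.11 in WT untreated thymocytes (-0.72 ± 0.36, adjusted p = 0.24). With only the 2 groups in the fit 11 members were higher and 2 lower. Without the 2 arrays that stood apart 18 were higher and 1 lower, a count that again selects on the members' own values.

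Beside the members, 18 of 97 other ribosome biogenesis genes were higher in WT ENU tumours than in WT untreated thymocytes (18.6%) and 1 lower, and in WT Notch tumours 0 of 97 were called by limma (by unadjusted p under 0.05, 10 higher and 5 lower). Their median difference was 0.35 in WT ENU and 0.07 in WT Notch tumours, below the 0.83 and 0.50 of the members. Without overlap, 64.9% lay above and 11.3% below the thymocytes in WT ENU tumours. In WT Notch tumours these shares were 39.2% and 23.7%, where 32.1% and 35.6% of all genes did so. In WT ENU tumours Nol6 differed by 1.06 ± 0.19 (adjusted p = 0.0017), the helicase Dhx33 by 1.14 ± 0.24 (adjusted p = 0.00417), Naf1, an assembly factor of H/ACA snoRNPs, by 1.54 ± 0.38 (adjusted p = 0.0106), the RNA acetyltransferase Nat10 by 0.98 ± 0.24 (adjusted p = 0.0117) and Imp3 by -0.91 ± 0.26 (adjusted p = 0.0244). Of 8 members with CACGTG 5 were higher in WT ENU tumours, and of 23 without it 8.

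Myc had 12.57, 12.51 and 12.39 in WT ENU tumours and 12.84 and 12.48 in WT Notch tumours, against 11.62 and 11.46 in WT untreated thymocytes. No tumour array of these groups reached down to the thymocytes, but the differences of 0.95 ± 0.38 in ENU tumours (adjusted p = 0.0955) and 1.12 ± 0.42 in Notch tumours (adjusted p = 0.118) were not called. In WT ENU tumours Max was higher (0.46 ± 0.12, adjusted p = 0.0178), Mycn lower (-0.62 ± 0.13, adjusted p = 0.00414) and Mki67 higher (1.31 ± 0.16, adjusted p = 0.00016), while Top2a differed by 0.76 ± 0.33 (adjusted p = 0.119) and Pcna by 0.47 ± 0.22 (adjusted p = 0.155). Of 13 proliferation genes 6 were higher in WT ENU tumours, with a median of 1.00, and 1 in WT Notch tumours. Granulocyte markers were lower for 7 of 8 in WT ENU tumours (log2 summed signals of 9.98 to 10.22 against 12.81 to 13.01 in WT untreated thymocytes), thymocyte markers lower for 1 of 8 (15.37 to 15.64 against 16.38 to 16.42) and NK and cytotoxic markers for 2 of 4; their part in the members' values was not tested.

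**Figure D4:**
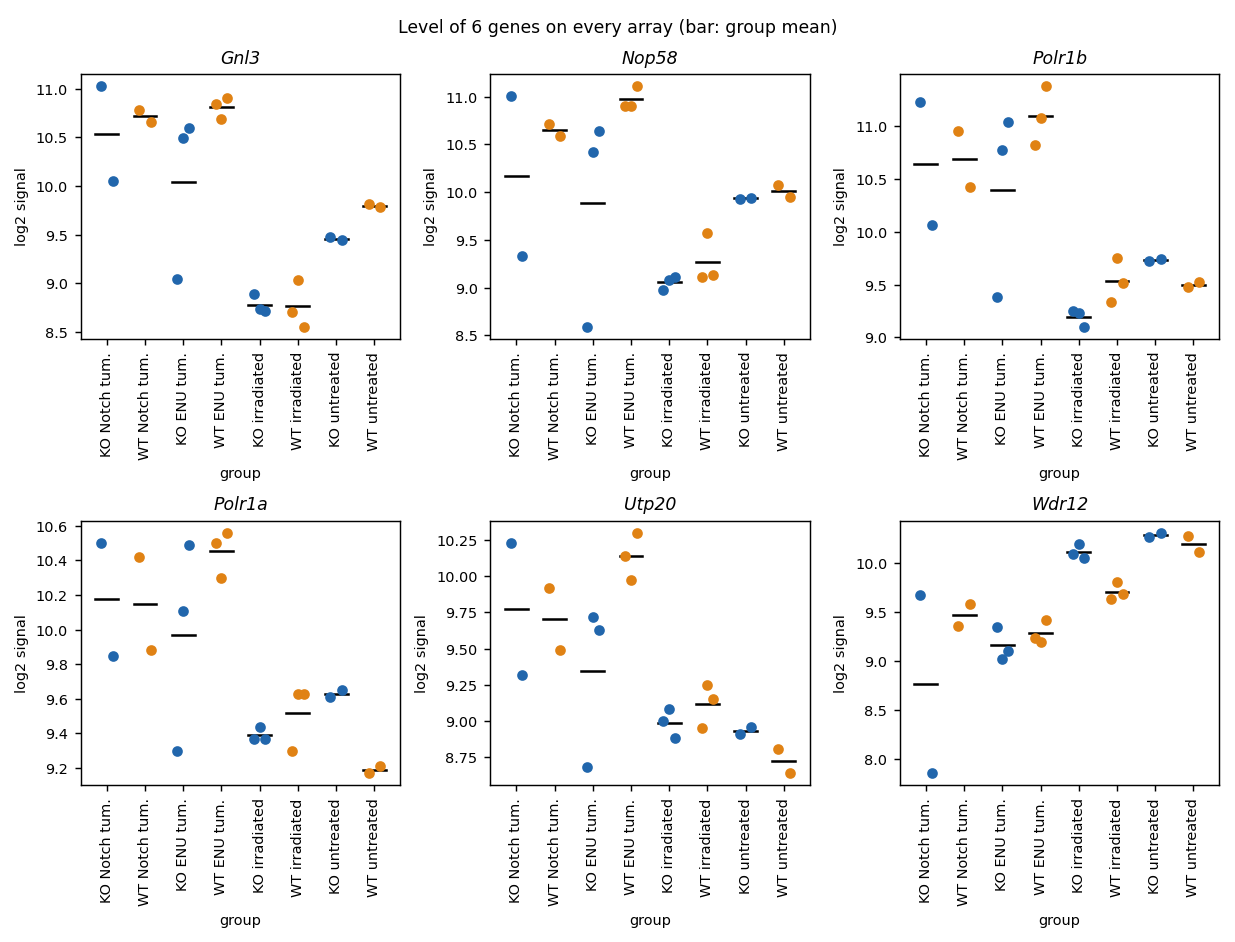
Log2 signal of 6 members on every array (points) with the group mean (bar), KO in blue and WT in orange. By group means, Gnl3 and Nop58 are lowest in irradiated thymocytes, Polr1b, Polr1a and Utp20 are highest in WT ENU tumours, and Wdr12 is highest in thymocytes.

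Against WT ENU tumours, WT Notch tumours had lower values for most members. By limma 0 of 36 were called (by unadjusted p under 0.05, 0 higher and 1 lower, and of all genes 2.77% and 4.65%), where 0.0154% of all genes were called higher and 0.00768% lower, but 34 of 36 differences were negative and their median was -0.33, against -0.04 over all genes. For 18 members (50%) both Notch arrays lay below all 3 ENU arrays, where 21.8% of all genes did so. Ltv1 had 9.08 and 9.07 in WT Notch tumours against 9.81, 9.63 and 9.86 in WT ENU tumours (-0.69 ± 0.23, adjusted p = 0.567). The WT ENU arrays enter this comparison and those with thymocytes and with ENU tumours labelled KO.

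In ENU tumours labelled KO all 36 members had lower means than in WT ENU tumours, and none passed the test. By limma 0 of 36 were called (by unadjusted p under 0.05, 0 higher and 6 lower, and of all genes 4.44% and 9.24%; smallest adjusted p = 0.284), where 0% of all genes were called. Differences ran from -1.21 to -0.12, with a median of -0.64 against -0.07 over all genes. In 17 members (47.2%) every array labelled KO lay below every WT array, where 19.0% of all genes did so. Since no Gfi1 probe set was called lower in the tumours labelled KO, a loss of Gfi1 was not shown there and these values compare the labels.

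Ltv1 had 8.38, 8.88 and 9.21 in ENU tumours labelled KO against 9.81, 9.63 and 9.86 in WT ENU tumours (-0.94 ± 0.21, adjusted p = 0.284). Nop58 had 8.59, 10.42 and 10.64 against 10.90, 10.90 and 11.11 in the same groups (-1.09 ± 0.57, adjusted p = 0.381), and Polr1b had 9.38, 10.77 and 11.04 against 10.82, 11.08 and 11.38 (-0.70 ± 0.46, adjusted p = 0.44). In each of these 3 genes the first tumour labelled KO was the lowest array, well below the other two. Noc4l and Ltv1 passed the threshold in the fit of all 20 arrays (-0.77, adjusted p = 0.0457, and -0.94, adjusted p = 0.0113).

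Leaving out ENU tumour 1 labelled KO brought the median difference to -0.30, with 0 members called. That tumour had the lowest summed thymocyte marker signal of the group and the highest for macrophage and dendritic markers; over the groups, thymocyte signals were 14.75 to 15.36 in ENU tumours labelled KO against 15.37 to 15.64 in WT ENU tumours, macrophage and dendritic signals 12.62 to 14.09 against 12.58 to 12.85, and erythroid and megakaryocyte signals 11.87 to 13.91 against 10.35 to 10.92. All 13 proliferation genes also had lower means in ENU tumours labelled KO, from -0.94 to -0.27 with a median of -0.58, and 9 of them did not overlap, with 0 called (by unadjusted p under 0.05, 2 lower). Of each of the 7 marker lists 0 genes were called by limma. The part of these genes and of that tumour in the result was not tested. Myc had 10.93, 12.55 and 12.61 in ENU tumours labelled KO against 12.57, 12.51 and 12.39 in WT ENU tumours (-0.45 ± 0.45, adjusted p = 0.585). The groups of Myc overlapped, and only ENU tumour 1 labelled KO lay below the WT arrays. The other ribosome biogenesis genes had a median of -0.46, with 0 of 97 called and 42 without overlap below WT.

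**Figure D5:**
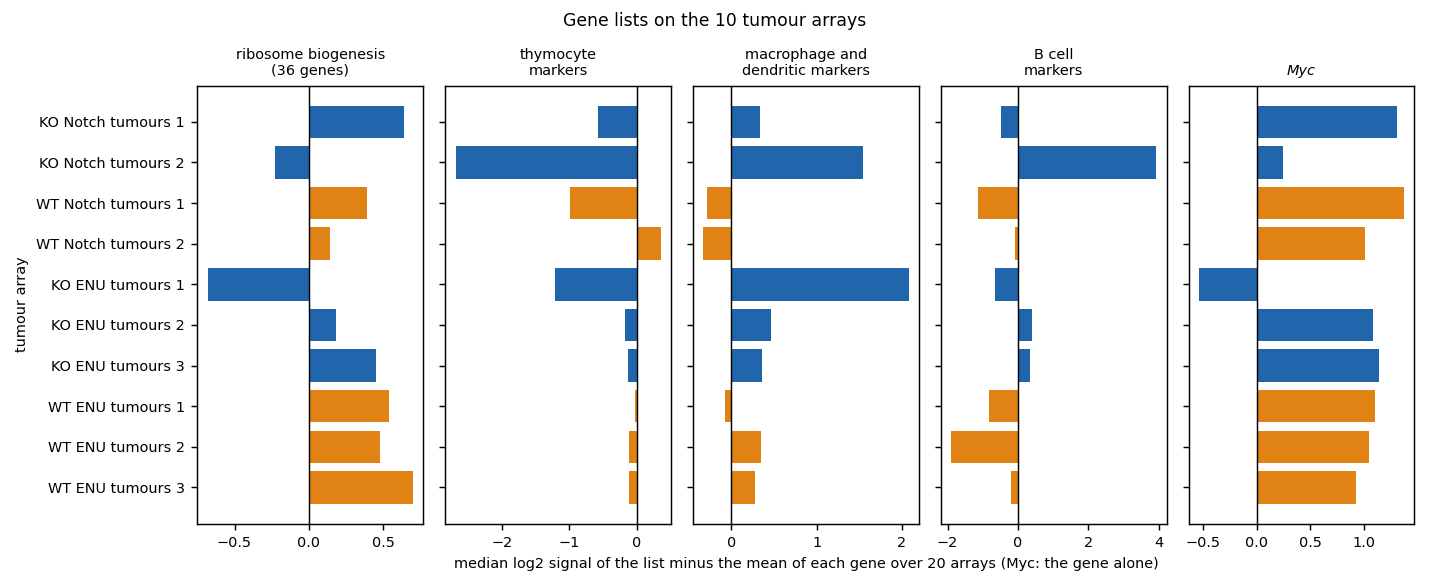
Median of the members and of 3 marker lists, and the level of Myc, on each of the 10 tumour arrays, as log2 signal minus the mean of each gene over 20 arrays (KO in blue, WT in orange). ENU tumour 1 labelled KO is lowest for the members at -0.68 and highest for macrophage and dendritic markers at 2.08, and KO Notch tumour 2 is highest for B cell markers at 3.93.

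No member differed between KO and WT Notch tumours by the test. By limma 0 of 36 members were called (by unadjusted p under 0.05, 0 either way, and of all genes 2.65% higher and 3.34% lower), where 0% of all genes were called higher and 0.0154% lower, and the median difference was -0.04 against -0.05 over all genes. The KO arrays lay on both sides of the WT arrays in Polr1b, which had 11.23 and 10.06 in KO against 10.95 and 10.42 in WT Notch tumours (-0.04 ± 0.56, adjusted p = 0.999). Nop56 had 12.22 and 11.23 in KO against 12.13 and 11.93 in WT Notch tumours (-0.30 ± 0.50, adjusted p = 0.948).

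Which array was kept decided the sign. Without KO Notch tumour 2, whose B cell markers are high, the median difference was 0.38 with 0 members called, and without KO Notch tumour 1 it was -0.50 with 1 member lower, Wdr12 (-1.62, adjusted p = 0.00525), where 8.23% of all genes were called. Log2 summed B cell marker signals were 11.12 to 15.44 in KO against 10.46 to 11.66 in WT Notch tumours, and thymocyte marker signals 13.61 to 15.33 against 14.97 to 15.85. The KO minus WT difference in Notch tumours, less that between the labels in ENU tumours, had a median of 0.57, with 0 of 36 called by limma (by unadjusted p under 0.05, 1 higher and 0 lower, and of all genes 3.76% and 3.41%), where 0% of all genes were called. The median ran from 0.14 to 1.03 when an array was left out. Below, this comparison is named the KO effect in Notch minus ENU, which for ENU tumours refers to the labels only.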

How the data were processed

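The deposited table holds one processed value per probe set and array, made by the authors from biotin-labelled cDNA (NuGEN Ovation Pico amplification, per the labels' protocols). Its values run from 3.37 to 15.01 with array medians of 9.08 to 9.27, and they were read as log2 signal as deposited. No source used here gives the background correction, normalization or log base. The number of arrays limits the precision.

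Of 182058 probe sets, 167016 name 1 gene, 3388 several and 11654 none. Only those naming 1 gene were used, which left out 8 probe sets shared by a member and another gene. A gene is the median of its row-centred probe sets plus the mean of their means. A gene was tested when it exceeded the 40th percentile of its array on 2 or more arrays of a fit. limma 3.58.1 (lmFit and eBayes, R 4.3.3) was run for 11 comparisons on the 10 thymocyte, 10 tumour or all 20 arrays, with adjustment over all genes tested, after it was tested on simulated data.

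The members and lists were chosen with earlier results of these data known. Named genes are up to 6 called members per direction with the largest differences and no overlap, up to 4 other pathway genes with the smallest p, the members Polr1a, Polr1b, Nop56, Nop58, Fbl, Ncl, Npm1, Dkc1, Bop1, Pes1, Wdr12 and Heatr1, and Myc, Mycn, Max, Mki67, Top2a and Pcna. Genes named beyond these were chosen after their values were seen. Of 108 other pathway genes listed, 98 have a probe set. Same-numbered samples of different groups did not deviate together (r from -0.456 to 0.201), so the numbers were not used as pairs. Alternatives were quantile normalization, the mean of probe sets, no filter, dim probe sets left out, other sets of arrays in the fit, the replicate number as a block, and each array left out.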

Additional observations from a re-analysis of the deposited data

How the results depend on the processing

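No called member changed sign under any alternative (0 reversed). Of the values for single members 4587 kept their side of the threshold, 83 passed it only under the alternative and 149 no longer passed. Differences of uncalled members changed sign in 205 of these values, 82 of them in KO minus WT Notch tumours. Several cells hold 2 arrays, and an array left alone is assumed to vary like the other groups. The cause of the changes below was not tested.

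With all 20 arrays in one fit, members called were 0 in the untreated KO minus WT comparison, 0 in the irradiated one, 0 in each irradiation comparison and 2 in ENU tumours labelled KO minus WT. All genes called there against the fits reported were 115 against 1566 (KO minus WT, untreated), 148 against 1903 (irradiated), 772 against 4946 (irradiation in KO), 548 against 4413 (irradiation in WT), 6 against 240 (difference of responses), 184 against 2 (Notch KO minus WT), 679 against 0 (ENU), 126 against 0 (Notch minus ENU KO effect) and 270 against 3 (Notch minus ENU in WT). Quantile normalization gave 2 members in the untreated comparison and 1 for the difference of responses, and the mean of probe sets 1 there as well. In irradiated KO minus WT, 1 member was called with no filter and 1 with dim probe sets left out. With only the 2 groups in the fit, WT ENU tumours minus thymocytes gave 29 members and WT Notch tumours 13 (1900 of all genes, against 1038). Without the 2 tumour arrays that stood apart they gave 30 and 19 (4490 and 2730 of all genes, against 2713 and 1038). Those arrays are the lowest over the members, so these counts select on the members' own values.

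With each array left out in turn, members called ranged from 0 to 0 (KO minus WT, untreated; median 0.09 to 0.17), 1 to 2 (irradiated), 11 to 16 (irradiation in KO), 7 to 14 (irradiation in WT), 0 to 2 (difference of responses), 0 to 1 (Notch KO minus WT; median -0.50 to 0.38), 0 to 1 (KO effect in Notch minus ENU; median 0.14 to 1.03), 1 to 12 (WT ENU minus thymocytes; median 0.74 to 0.86) and 0 to 0 (WT Notch minus thymocytes; median 0.38 to 0.61). The median ran from -0.82 to -0.30 for ENU KO minus WT and from -0.39 to -0.16 for Notch minus ENU in WT. The share of all genes called also changed with arrays left out, as given above for the untreated arrays. These counts therefore do not describe the members alone. The samples share only a number, and with the replicate number as a block, members called were 1 (KO minus WT, untreated), 2 (irradiated), 15 (irradiation in KO), 11 (irradiation in WT), 10 (WT ENU minus thymocytes) and 0 in the other comparisons, with a median of -0.16 for Notch minus ENU in WT.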
